A study of Mus musculus with 32 samples.

Results

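The transcripts described here are those whose level differed between albino and pigmented mice in the same direction in 4 tissues: the extraocular muscles that move the eye (EOM), the tibialis anterior limb muscle (TA), and brainstem samples taken for the oculomotor (CN3) and abducens (CN6) motor neurons. Total RNA was sequenced from 32 libraries, 16 from B6(CG)Tyr(c-2J)/J mice, an albino strain that carries the Tyr c-2J allele on a B6 background, and 16 from pigmented C57BL/6 mice, 4 for each tissue and genotype. The study concerns nystagmus, an involuntary movement of the eyes, in the albino strain. Members were chosen by their measured fold changes in these libraries: in edgeR's quasi-likelihood test with Benjamini-Hochberg adjustment over 17169 genes, a member had an adjusted p under 0.05 in each of the 4 tissues with one sign of change. The rule was met by 10 genes (0.0582%). A second fit, with tissue as a block, gave the main effect of genotype over all 32 libraries and called 2947 genes (17.2%), of which 1421 (8.28%) were higher and 1526 (8.89%) were lower in albino mice. With upper quartile scaling the split of the called genes was 1816 higher and 1204 lower. Because these contrasts chose the genes, their fold changes are given as a description.

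Tyr encodes tyrosinase, the first enzyme of melanin synthesis in pigment cells, and loss of its function gives an albino animal. C57BL/6 is not a single genome: colonies kept apart for many generations differ at known places, among them a loss of exons of Nnt in the C57BL/6J substrain and a segment of chromosome 19 around Ide and Fgfbp3 that varies in copy number. The labels name the pigmented mice C57BL/6 with no substrain, and give no age, sex or time of collection. The Tyr allele, the origin of the colony and anything else that separated the 2 groups of mice therefore cannot be told apart. Nothing in the labels says which libraries came from separate animals, so the p-values measure only the spread between these samples.

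Library totals, to the nearest 100, ran from 18544300 to 44254000 counts, and no 2 libraries held identical counts. Rn45s, the ribosomal RNA precursor, took 10.6% of the counts of the library labelled albino CN6 replicate 4 and at most 1.77% of any other. Of the 16 albino libraries, 8 went against their labelled tissue. Those labelled albino EOM replicates 1 and 2 and albino TA replicates 1 and 2 held brain transcripts, and those labelled albino CN3 replicates 3 and 4 and albino CN6 replicates 3 and 4 held muscle transcripts. Levels are in CPM, read counts divided by a library total that was scaled by the trimmed mean of M values. The libraries were placed by tissue markers: EOM against TA by Myh13, the myosin heavy chain particular to eye muscle, and Hoxc10, a hindlimb homeobox gene, and CN6 against CN3 by Hoxb3, a hindbrain homeobox gene. Placed this way, albino EOM libraries held 3558 to 4567 CPM of Myh13 and albino TA libraries 32.02 to 171 CPM, against 4064 to 4920 and 38.9 to 56.3 CPM in the pigmented mice. Hoxb3 lay between 18.2 and 25.4 CPM in pigmented CN6 libraries and at 0.216 CPM or less in pigmented CN3 libraries. In albino libraries Hoxb3 lay between 2.00 and 16.6 CPM in CN6 and at 0.148 CPM or less in CN3. The lowest of these CN6 values, 2.00 CPM, belonged to the library labelled albino CN6 replicate 1, which also held 187 CPM of Tph2, the enzyme of serotonin synthesis in the raphe. Tph2 ran from 18.9 to 181 CPM in albino CN3 libraries and from 0.685 to 2.52 CPM in pigmented ones. Chat, the acetylcholine-synthesising enzyme of motor neurons and other cholinergic neurons, was at 0.548 CPM or less in every pigmented CN3 library. Albino CN3 libraries held between 5.31 and 13.02 CPM of Chat. Results for the members are given with all 32 libraries and with the 24 whose label and markers name one tissue.

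**Figure D1:**
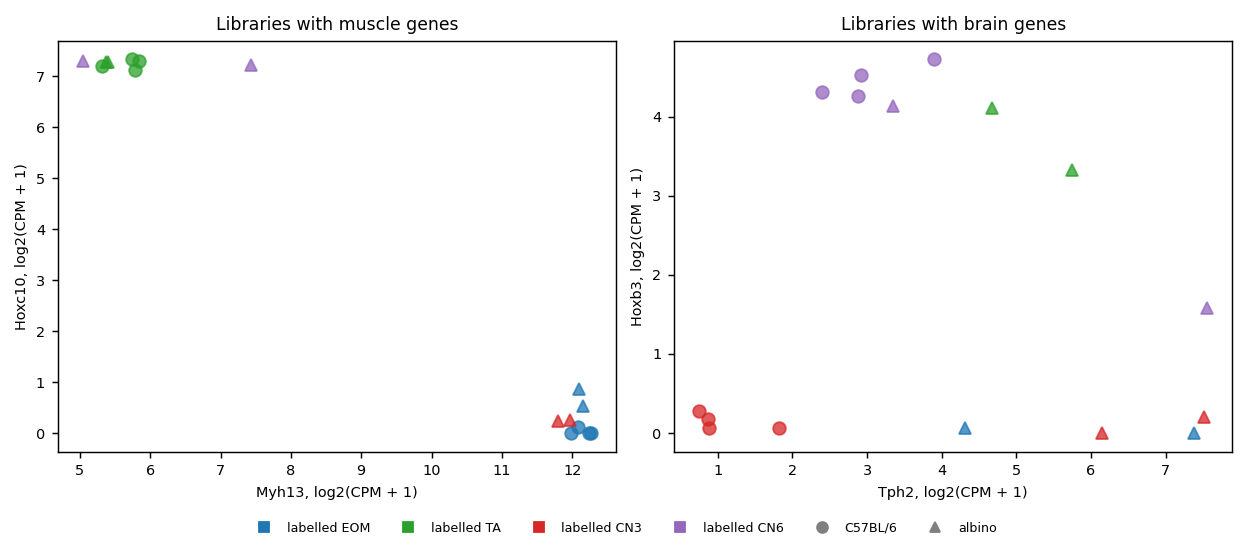
Marker levels, as log2(CPM + 1), in the libraries with muscle genes (left: Myh13 on the x axis, Hoxc10 on the y axis) and with brain genes (right: Tph2 on the x axis, Hoxb3 on the y axis). Colour gives the labelled tissue and shape the genotype (16 libraries each). Albino libraries labelled CN3 and CN6 sit among the eye and limb muscle, albino libraries labelled EOM and TA sit among the brainstem, and the library labelled albino CN6 replicate 1 lies at 2.00 CPM of Hoxb3.

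Of the 10 members, 5 were lower in albino mice: Wdfy1, Nnt, Dynlt1b, Zfp612 and Rab4a. The others were higher: 1500012F01Rik, Ide, Entpd4, Asb4 and Pydc3. In single tissues the same test called 40.0% of all EOM values (22.0% higher and 18.1% lower) and 29.8% of the TA ones (19.1% and 10.7%). For CN3 the share was 1.12% (0.623% and 0.501%), and for CN6 it was 0.250% (0.157% and 0.0932%). The brainstem tissues, and CN6 most of all, therefore limited which genes could be members. One sign in all 4 tissues, called or not, was shown by 16.1% of genes. With 24 libraries 5 members met the rule (Wdfy1, Nnt, Ide, Entpd4 and Asb4). With the 16 pigmented libraries and only the 8 albino libraries that went against their label, 6 met it (Wdfy1, Nnt, Ide, Entpd4, Zfp612 and Dynlt1b). These fits share the pigmented libraries. However 1 library was left out, 7 members met the rule: 7 of 10 in each of 32 fits, namely Wdfy1, Nnt, Dynlt1b, Zfp612, 1500012F01Rik, Ide and Entpd4. Asb4 lost it in 3 of the 32 fits, Rab4a in 13 and Pydc3 in 14. Zfp612 lost it with offsets for GC content and exon length, Rab4a with DESeq2 size factors or upper quartile scaling, Pydc3 without a filter on low counts, and Asb4 with CN3 and CN6 as 1 block. With the replicate number as a block, Rab4a and Pydc3 did not meet it. With a covariate for Y-linked expression, 1500012F01Rik, Dynlt1b, Rab4a and Pydc3 did not.

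**Figure D2:**
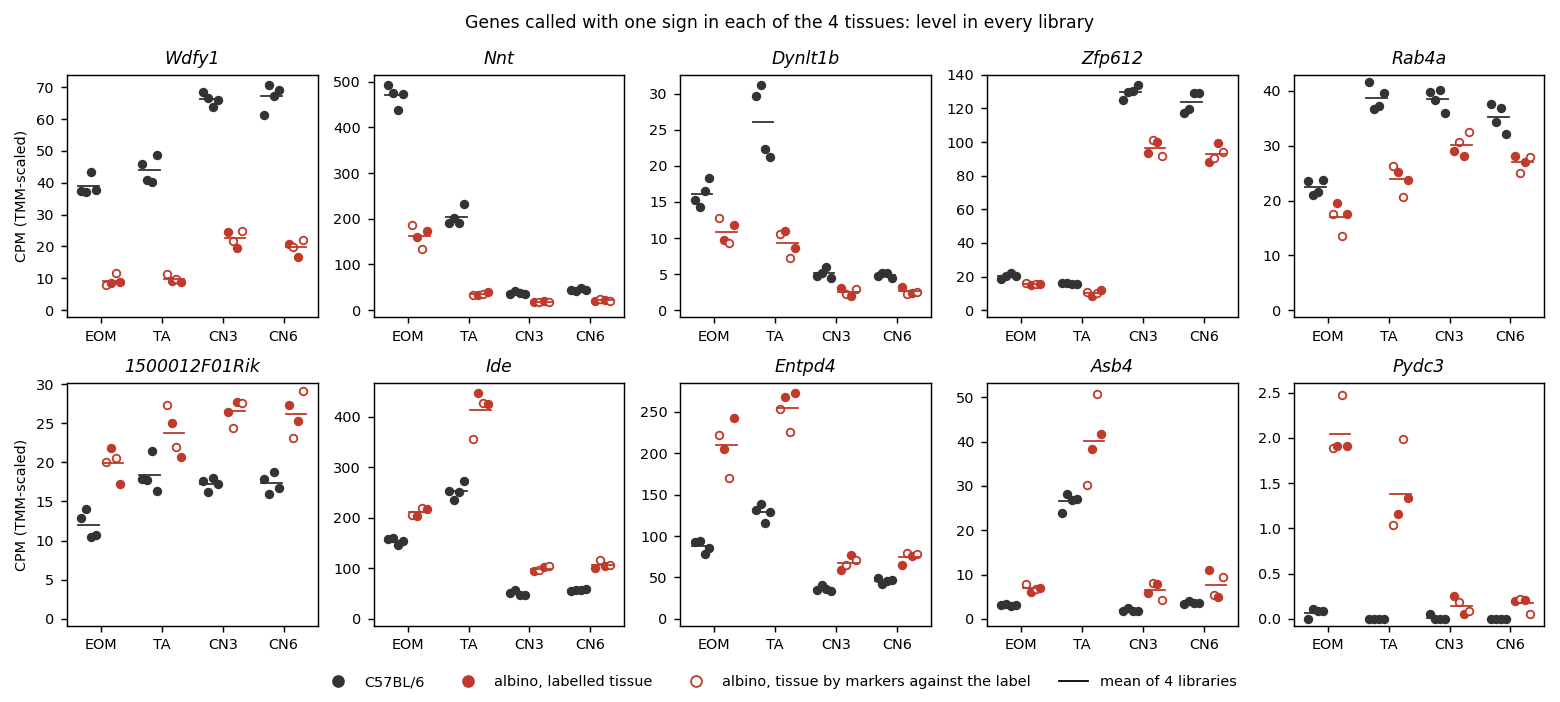
CPM (y axis) of the 10 members in every library, by tissue (x axis): pigmented C57BL/6 in black, albino in red, filled where label and markers name one tissue and open where the label was another, with a line at the mean of 4. For 8 of the 10 genes the black and red points do not overlap in any of the 4 tissues, which held for 0.0932% of all genes, but the members were chosen by these differences.

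Wdfy1 (chr1:79702262-79776143, GRCm38), which encodes an endosomal FYVE-domain protein that serves as an adaptor of Toll-like receptor signalling, had the smallest p of the members for the main effect. EOM libraries of pigmented mice held 37.2, 37.5, 37.6 and 43.3 CPM and those of albino mice 7.78, 8.48, 8.99 and 11.8 CPM. In TA the values were 40.1, 40.7, 45.8 and 48.8 CPM against 8.88, 9.27, 9.88 and 11.51 CPM. No albino muscle library reached the lowest pigmented one. In CN3 the pigmented libraries held 63.7, 65.8, 66.7 and 68.5 CPM and the albino ones 19.51, 21.6, 24.5 and 24.8 CPM, and in CN6 61.4, 67.3, 69.2 and 70.8 CPM against 16.8, 19.7, 20.7 and 22.2 CPM. The log2 fold changes, albino minus pigmented, were -2.07 (EOM), -2.16 (TA), -1.55 (CN3) and -1.76 (CN6), with standard errors of 0.10 to 0.11. In the 24 libraries they were -2.16, -2.27, -1.59 and -1.84 in the same order. Wdfy1 alone of the members met the rule with every library kept in its labelled tissue.

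Nnt (chr13:119335448-119408997) encodes the transhydrogenase of the inner mitochondrial membrane, which uses the proton gradient to make NADPH for the glutathione and thioredoxin systems. It was the member with the highest level in pigmented eye muscle: 438, 473, 476 and 492 CPM, against 134, 160, 173 and 186 CPM in albino eye muscle. TA libraries held 192, 192, 203 and 232 CPM in pigmented mice and 33.7, 33.9, 36.5 and 38.7 CPM in albino mice. Groups were far apart in both muscles. In CN3 the values were 34.9, 36.1, 38.3 and 40.9 CPM against 16.9, 16.9, 17.7 and 20.03 CPM, and in CN6 42.1, 44.1, 44.4 and 49.2 CPM against 19.4, 20.5, 22.3 and 23.7 CPM. The log2 fold changes were -1.53 (EOM), -2.52 (TA), -1.07 (CN3) and -1.07 (CN6), with standard errors of 0.086 to 0.092. The 24 libraries gave -1.496, -2.49, -1.03 and -1.11 in the same order. Reads from Nnt thus remained in every albino library, at a level that depended on the tissue. The counts are per gene, so they do not tell which exons these reads covered.

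Ide (chr19:37268743-37337852), the insulin-degrading enzyme, is a zinc metalloprotease that cleaves insulin, glucagon and amyloid beta. In EOM pigmented libraries held 147, 154, 158 and 160.3 CPM and albino libraries 204, 206, 217 and 219 CPM. TA had the highest level, 235, 252, 254 and 273 CPM against 357, 426, 428 and 447 CPM. In CN3 the values were 47.7, 48.1, 51.9 and 56.7 CPM against 94.0, 96.4, 103 and 104 CPM, and in CN6 55.8, 56.99, 57.9 and 58.9 CPM against 100.4, 104, 107 and 117 CPM. All 4 comparisons were free of overlap. The log2 fold changes were 0.45 (EOM), 0.71 (TA), 0.96 (CN3) and 0.90 (CN6), with standard errors of 0.065 to 0.066, and 0.44, 0.78, 0.94 and 0.83 in the 24 libraries. With offsets for GC content and exon length the values of Ide were 0.77, 0.87, 0.91 and 0.89, so the EOM value depends on them.

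Of 17 tested genes within 1 Mb of Ide on chromosome 19, 4 were called for the main effect, 2 in its direction (Btaf1 and Fgfbp3) and 2 lower, Lgi1 with a main log2 change of -0.22 and Tnks2 with -0.12. Btaf1 (chr19:36926079-37012752), which removes the TATA-binding protein from DNA, had log2 fold changes of 0.20, 0.94, 0.56 and 0.55 in EOM, TA, CN3 and CN6, with a largest adjusted p of 0.0679. Fgfbp3 (chr19:36917550-36919615), a secreted carrier of fibroblast growth factors, had 0.82, 0.54, 0.73 and 0.71, with a largest adjusted p of 0.0867. The third gene just outside, 1700112E06Rik, had 2.36, 3.12, 1.49 and 1.26 and a largest adjusted p of 0.0572. Just inside lay Asb4, Rab4a and Pydc3, with largest adjusted p of 0.0179, 0.0401 and 0.0418.

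Entpd4 (chr14:69337174-69367270) encodes a nucleotide-hydrolysing enzyme of the Golgi and lysosome membranes. Pigmented EOM held 78.8, 85.0, 93.4 and 94.5 CPM and albino EOM 171, 205, 222 and 243 CPM, and TA held 116, 129, 131 and 138 CPM against 226, 254, 268 and 273 CPM. Brainstem levels were lower, 33.98, 35.1, 36.03 and 41.4 CPM against 58.99, 64.99, 70.5 and 76.8 CPM in CN3 and 41.9, 45.8, 46.4 and 49.2 CPM against 65.0, 76.4, 78.8 and 80.0 CPM in CN6. The lowest albino library was above the highest pigmented one in each tissue. The log2 fold changes were 1.26, 0.99, 0.89 and 0.71 in EOM, TA, CN3 and CN6, and 1.35, 1.07, 0.89 and 0.62 in the 24 libraries. RefSeq also lists a copy of the gene, Entpd4b, on the same chromosome. Its reads are not analysed here, so the Entpd4 value is uncertain as to which copy it came from.

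Asb4 (chr6:5383386-5433022) encodes an adaptor that recruits substrates to a cullin-based ubiquitin ligase. Its level was 3.17 ± 0.270 CPM (SD, n = 4) in pigmented EOM against 6.95 ± 0.715 in albino EOM, 26.5 ± 1.81 against 40.2 ± 8.54 in TA, 1.955 ± 0.309 against 6.497 ± 1.77 in CN3 and 3.62 ± 0.235 against 7.73 ± 2.97 in CN6. The albino libraries spread more widely than the pigmented ones, from 30.1 to 50.7 CPM in TA and from 5.002 to 11.03 CPM in CN6, and did not overlap them. The log2 fold changes were 1.14, 0.60, 1.72 and 1.09 with standard errors of 0.19 to 0.22, and 1.06, 0.59, 1.79 and 1.14 in the 24 libraries. The rule was lost without the library labelled C57BL/6 TA replicate 1, albino CN6 replicate 1 or albino CN6 replicate 4.

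Zfp612 (chr8:110079746-110092741), a zinc finger protein, and Rab4a (chr8:123805985-123835287), a small GTPase of recycling endosomes, had the smallest main log2 changes of the members, -0.45 each. Zfp612 was a brainstem-rich transcript, at 130 ± 3.58 CPM in pigmented CN3 and 124 ± 6.29 in pigmented CN6, against 96.7 ± 4.69 and 93.1 ± 4.79 in albino mice. In muscle it stood at 20.4 ± 1.43 and 15.8 ± 0.350 CPM in pigmented EOM and TA, against 15.5 ± 0.591 and 10.3 ± 1.29 (SD, n = 4 each). Rab4a was at 22.5 ± 1.42 against 17.1 ± 2.52 CPM in EOM, 38.8 ± 2.25 against 23.99 ± 2.45 in TA, 38.5 ± 1.87 against 30.1 ± 1.93 in CN3 and 35.2 ± 2.55 against 27.0 ± 1.41 in CN6. Pigmented and albino libraries of both genes kept apart in all 4 tissues. The log2 fold changes of Zfp612 were -0.39, -0.61, -0.42 and -0.41 and those of Rab4a -0.40, -0.69, -0.36 and -0.38. In the 24 libraries they were -0.43, -0.63, -0.42 and -0.40 for Zfp612 and -0.27, -0.66, -0.43 and -0.36 for Rab4a, with CN6 not called for either (edgeR's quasi-likelihood test, Benjamini-Hochberg adjusted p = 0.076 and 0.15). With GC and length offsets Zfp612 had -0.16 in EOM, not called (adjusted p = 0.069), and Rab4a had -0.72, -0.86, -0.33 and -0.39. The CN6 call of Rab4a was also lost with DESeq2 size factors (adjusted p = 0.071), upper quartile scaling (0.081) and the replicate block (0.052).

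Dynlt1b (chr17:6430112-6436296), a Tctex-type light chain of the dynein motor, lies in a cluster of near-identical tandem copies, so its value is uncertain. It was at 16.1 ± 1.73 against 10.9 ± 1.66 CPM in EOM, 26.1 ± 5.06 against 9.35 ± 1.75 in TA, 5.10 ± 0.658 against 2.53 ± 0.537 in CN3 and 4.885 ± 0.33 against 2.60 ± 0.420 in CN6, the pigmented value first (SD, n = 4), with no overlap in any tissue. Its log2 fold changes were -0.57, -1.48, -1.01 and -0.91. In the 24 libraries they were -0.59, -1.41, -1.04 and -0.83, with CN6 not called (adjusted p = 0.20). The neighbouring pseudogenes Tmem181b-ps and Tmem181c-ps were lower in albino mice too, with main log2 changes of -1.13 and -0.60 and adjusted p of 5.5e-08 and 0.00057. The copies Dynlt1a (-0.12) and Dynlt1f (-0.28) and the parent gene Tmem181a (-0.11) were not called.

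1500012F01Rik, which RefSeq names Zfas1 (chr2:167062934-167065862), is a long noncoding RNA that hosts small nucleolar RNAs and overlaps the start of Znfx1 on the other strand. Its level was 11.98 ± 1.72 against 19.9 ± 1.96 CPM in EOM, 18.4 ± 2.20 against 23.7 ± 3.01 in TA, 17.3 ± 0.767 against 26.5 ± 1.59 in CN3 and 17.3 ± 1.26 against 26.2 ± 2.61 in CN6. TA was the exception to the separation: its pigmented libraries reached 21.5 CPM and its albino ones began at 20.7 CPM. Log2 fold changes of this RNA were 0.73, 0.37, 0.62 and 0.60 in EOM, TA, CN3 and CN6. In the 24 libraries they were 0.71, 0.32, 0.65 and 0.60, with TA and CN6 not called (adjusted p = 0.084 and 0.074). Znfx1 had a main log2 change of -0.06 and was not called. How the counting treated strand is not given in the sources used here, so reads of the 2 genes may be mixed.

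Pydc3 (chr1:173673628-173698393), a pyrin-domain-only gene of the interferon-inducible Ifi200 cluster, was close to absent from pigmented mice and low in albino ones. Over the 4 libraries of a group it had 0 counts in pigmented TA against 76 in albino TA, 0 against 27 in CN6, 2 against 24 in CN3 and 6 against 178 in EOM. Against a floor of 3 counts over a group, the albino level was at least 29.0-fold higher in TA and at least 10.6-fold higher in CN6. In EOM the mean was 0.0697 ± 0.0474 CPM in pigmented and 2.05 ± 0.289 CPM in albino mice (SD, n = 4). Its calls in brainstem rest on 2 to 10 counts in each albino library, and Pydc3 is one of a family of similar genes, so the assignment of these reads is uncertain. With 24 libraries neither brainstem tissue was called (adjusted p = 0.28 in CN3 and 0.13 in CN6). Of its neighbours, Aim2, the cytosolic DNA sensor, had log2 changes of 1.04 in CN3 and 1.16 in CN6 but 0.26 and -0.13 in EOM and TA. Ifi204, Ifi203, Mndal and Mnda had main log2 changes between 0.04 and 0.30, none of them called.

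Within 1 Mb of the 10 members lay 187 other tested genes, of which 34 (18.2%) were called for the main effect, 19 of them in the direction of the nearby member. That share was near the 17.2% of all genes tested. A wider count gave 16 genes (0.0932%) whose 4 pigmented and 4 albino libraries did not overlap in any tissue with one direction, 6 higher and 10 lower in albino mice. No overlap between the groups was met by 34.0% of all genes for EOM, 25.9% for TA, 10.2% for CN3 and 6.38% for CN6. Of the 16, 8 were members, and the rest were 1700112E06Rik, Cpn1 and Bex1 (higher) and Txndc16, Bms1, 4931406C07Rik, Edc3 and Tmem181b-ps (lower). Bex1, a brain-expressed adaptor on the X chromosome, had log2 changes of 0.26, 0.54, 0.51 and 0.70 in EOM, TA, CN3 and CN6. Bms1, a ribosome biogenesis GTPase, had -0.13, -0.33, -0.24 and -0.21, and Txndc16, a thioredoxin-domain protein of the endoplasmic reticulum, had -0.50, -0.36, -0.15 and -0.12.

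The size of the genotype difference in muscle was compared with that in brainstem, as the mean of the EOM and TA log2 fold changes minus the mean of the CN3 and CN6 ones. This contrast is built from the 4 differences that chose the members, so for them it is a description. It was called for 6457 of all genes (37.6%) and for 5 of the 10 members. Nnt fell further in muscle than in brainstem (-2.02 against -1.07 on the log2 scale, difference -0.95, SE 0.087, adjusted p = 3.9e-09). Wdfy1 did as well (-2.11 against -1.65, difference -0.46, SE 0.10, adjusted p = 9.0e-04). Entpd4 rose further in muscle (1.12 against 0.80, difference 0.32, SE 0.096, adjusted p = 0.0087). Ide and Asb4 rose further in brainstem, Ide by 0.93 against 0.58 (difference -0.35, SE 0.065, adjusted p = 1.1e-04) and Asb4 by 1.41 against 0.87 (difference -0.54, SE 0.20, adjusted p = 0.038). No such difference was called for Dynlt1b (-0.06, SE 0.16), Zfp612 (-0.09, SE 0.065), Rab4a (-0.18, SE 0.086) and 1500012F01Rik (-0.06, SE 0.10), which does not show that the tissues were alike. With GC and length offsets the differences for Ide (0.77 and 0.87 in EOM and TA, 0.91 and 0.89 in CN3 and CN6) came close to each other, and those for Rab4a moved apart (-0.72 and -0.86 against -0.33 and -0.39). For Pydc3, with 0 counts in 2 of the pigmented groups, the fitted difference had no usable error.

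**Figure D3:**
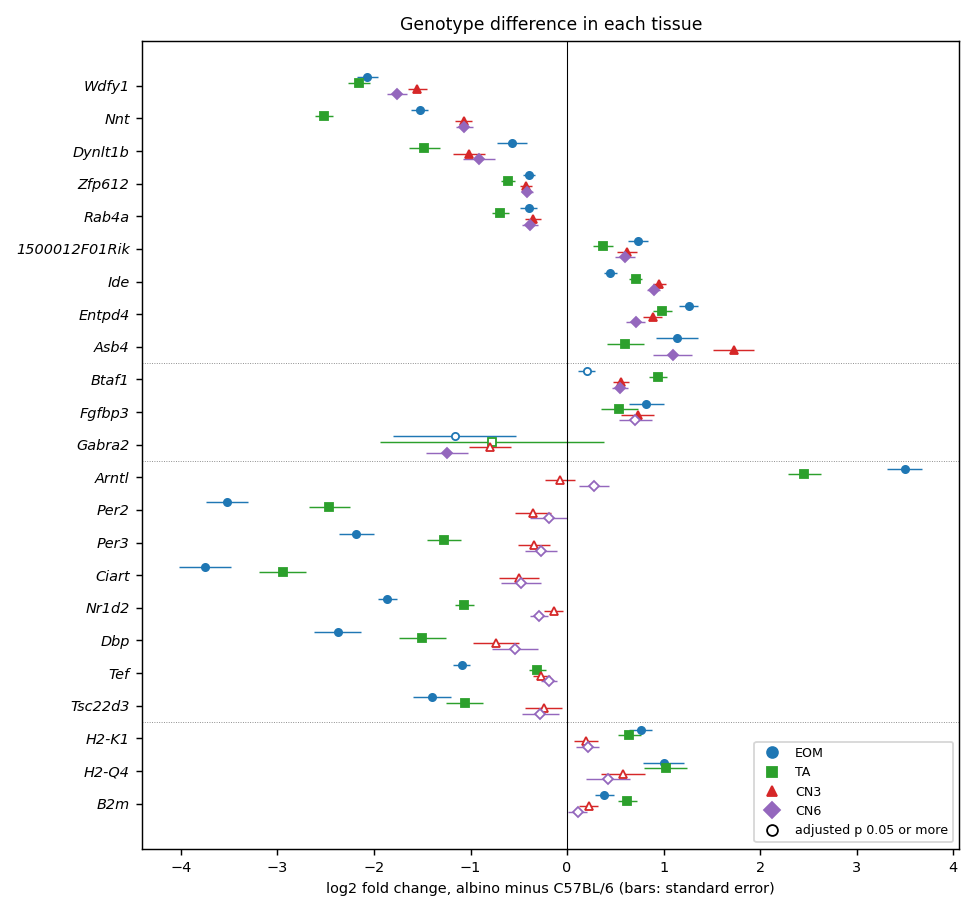
Log2 fold change, albino minus C57BL/6 (x axis), with standard errors as bars, in EOM, TA, CN3 and CN6 for 9 members (top), the chromosome 19 neighbours and Gabra2, clock and glucocorticoid genes, and MHC genes (bottom). Open symbols have an adjusted p of 0.05 or more. The members keep one sign in all tissues, as the rule that chose them required. The clock genes have filled symbols in the 2 muscles and open ones in brainstem, from 3.50 for Arntl to -3.75 for Ciart in EOM. Pydc3 is left out because 2 of its pigmented groups had 0 counts.

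A fixed list of genes known to differ between C57BL/6 substrains had 10 tested members, and 7 of them were called for the main effect, 4 higher and 3 lower. The 4 members Nnt, Wdfy1, Ide and Entpd4 belong to it, and it was drawn up with results of these data known, so it is no independent evidence. Crb1, a cell polarity protein, had 0 counts in pigmented muscle and rose from 0.734 ± 0.195 to 3.36 ± 0.421 CPM in CN3 and from 0.445 ± 0.187 to 2.55 ± 0.855 CPM in CN6. Gabra2, a subunit of the GABA-A receptor, was at 41.0, 41.1, 42.2 and 49.2 CPM in pigmented CN6 and at 17.5, 18.1, 18.5 and 19.2 CPM in albino CN6. In CN3 Gabra2 was at 31.9 ± 4.15 against 18.4 ± 1.92 CPM, which was not called there (log2 change -0.80, adjusted p = 0.065), and it was under 1 CPM in all muscle libraries. Cyfip2 (main log2 change 0.14) was not called. Tyr itself stayed at 0.636 CPM or less in every library, with 0 counts in TA, and was not called (main log2 change -1.16, adjusted p = 0.13). Its counts are too low to compare genotypes at this depth.

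Behind the 10 members, most of the main effect came from muscle. Of the 2947 genes called, 2241 were also called in that direction in EOM and 2019 in TA, but 63 in CN3 and 28 in CN6. Their median absolute log2 change was 0.46 in muscle and 0.085 in brainstem, against 0.30 and 0.10 over all genes tested. The muscle against brainstem difference itself was called for 1853 of the 2947 (62.9%), compared with 37.6% of all genes. Both called and of one sign in the 4 tissues were 1444 genes (8.41% of those tested), 641 higher (3.73%) and 803 lower (4.68%). With 24 libraries the main effect called 1623 genes and with the 8 albino libraries against their label 735. In bulk tissue, fewer cells of a type and less RNA per cell cannot be told apart, and this holds for every gene group that follows. Main effect counts of those groups stand against 8.28% of all genes called higher and 8.89% called lower.

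**Figure D4:**
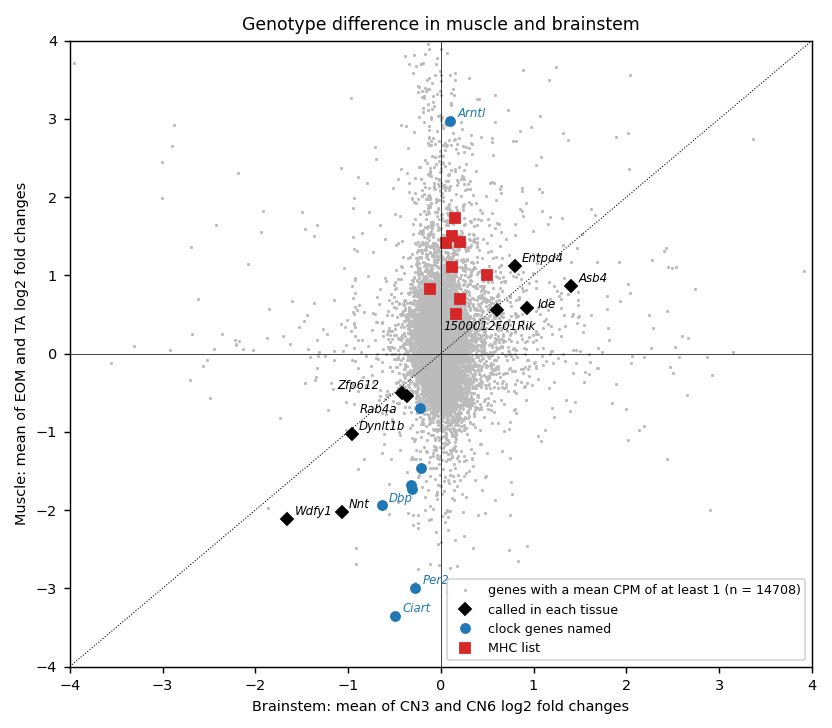
Genotype difference in brainstem (x axis, mean of CN3 and CN6 log2 fold changes) against muscle (y axis, mean of EOM and TA) for 14708 genes with a mean of at least 1 CPM; 30 genes lie outside the axes. The 9 members in black have one sign on both axes, as the rule that chose them required. They lie on either side of the dotted line of equal change. Clock genes (blue) and MHC genes (red) mostly differ more in muscle, with some off 0 on the brainstem axis too (Dbp at -0.64, Ciart at -0.49).

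Genes of the circadian clock differed between the genotypes in muscle. In the clock, the activators Arntl and Clock drive Per, Cry and Nr1d genes through E-boxes, and the products repress them in turn over the day. Of 19 tested core clock genes 9 were lower and 3 higher, and of 12 clock output genes 8 were lower and 1 higher. In EOM 15 core clock genes were called (10 lower, 5 higher) and in TA 14 (8 lower, 6 higher), while 0 were called in either CN3 or CN6. The muscle against brainstem difference was called for 15 of the 19. With 24 libraries 8 core clock genes were lower and 2 higher for the main effect, and 7 output genes were lower and 0 higher. Time of collection is not in the labels, so genotype and time of day cannot be told apart.

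Arntl was at 3.60, 4.41, 4.90 and 6.73 CPM in pigmented EOM and at 50.1, 51.6, 52.0 and 66.2 CPM in albino EOM. Per2, its repressor, went the other way, from 55.2, 64.1, 69.0 and 74.6 CPM to 3.37, 4.99, 6.99 and 7.54 CPM. The albino and pigmented eye muscle libraries did not overlap for either gene. In TA, Arntl was at 12.8 ± 1.31 against 70.0 ± 6.42 CPM and Per2 at 39.5 ± 4.00 against 7.11 ± 1.96 CPM. In CN3 the genotypes overlapped, Arntl at 22.98 ± 5.002 against 21.9 ± 2.17 CPM and Per2 at 26.5 ± 4.65 against 20.7 ± 3.45 CPM (SD, n = 4). Dbp, a PAR-bZIP factor driven by the clock, kept one sign throughout, with log2 changes of -2.38, -1.498, -0.73 and -0.54 in EOM, TA, CN3 and CN6, although its brainstem values were not called. Ciart, a clock repressor, had -3.75, -2.95, -0.50 and -0.48, Per3 -2.18, -1.27, -0.35 and -0.27, and Nr1d2 -1.86, -1.07, -0.14 and -0.29. For these genes the muscle against brainstem difference was called, from -2.86 (SE 0.23) for Ciart to -1.25 (SE 0.097) for Nr1d2.

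Promoters of 3 clock genes that were lower in albino mice are shown because each holds the E-box letters CACGTG, in capitals. They run from 250 bases before to 50 after the RefSeq start (GRCm38.p6), 5′ to 3′ on the strand of the gene. Ciart lies at chr3:95882179-95882478 (minus strand), Per1 at chr11:69098699-69098998 (plus strand, one of 2 starts listed) and Tef at chr15:81802423-81802722 (plus strand, one of 2 starts listed).
Ciart: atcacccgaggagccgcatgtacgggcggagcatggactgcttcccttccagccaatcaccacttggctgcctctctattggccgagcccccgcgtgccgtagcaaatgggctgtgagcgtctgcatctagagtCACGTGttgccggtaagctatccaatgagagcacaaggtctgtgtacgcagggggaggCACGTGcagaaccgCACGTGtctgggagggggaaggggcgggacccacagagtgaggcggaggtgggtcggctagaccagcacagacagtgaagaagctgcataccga
Per1: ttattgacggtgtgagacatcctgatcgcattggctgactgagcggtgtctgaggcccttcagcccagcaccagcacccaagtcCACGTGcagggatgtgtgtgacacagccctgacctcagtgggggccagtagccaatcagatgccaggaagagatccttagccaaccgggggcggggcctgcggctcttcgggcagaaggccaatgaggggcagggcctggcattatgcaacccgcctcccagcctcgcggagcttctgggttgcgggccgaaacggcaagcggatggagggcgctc
Tef: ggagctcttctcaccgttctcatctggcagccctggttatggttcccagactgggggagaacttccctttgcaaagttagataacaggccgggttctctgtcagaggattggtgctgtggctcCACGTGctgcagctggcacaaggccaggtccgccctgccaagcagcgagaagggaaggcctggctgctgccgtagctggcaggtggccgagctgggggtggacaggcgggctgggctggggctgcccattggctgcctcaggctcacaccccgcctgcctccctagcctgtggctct
The letters CACGTG, which read the same on both strands, were counted at the first start listed for each gene. They stood in 4 of 14 core clock promoters (Per1, Cry1, Bhlhe41 and Ciart) and in 2 of 12 clock output promoters (Tef and Lonrf3), against 7.24% of 27025 RefSeq promoters of the same length. A further start of the output gene Tspan4, not counted here, held them too. Ciart held 3 copies. Of the 10 members, 2 had a promoter in the table, and neither held any of the 5 motifs searched.

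The list of glucocorticoid-responsive genes shares Per1, Tsc22d3 and Pdk4 with the clock lists. Of 14, 8 were lower and 1 was higher for the main effect, against 8.89% and 8.28% of all genes. Tsc22d3, an anti-inflammatory leucine zipper protein, had log2 changes of -1.40, -1.06, -0.24 and -0.28 in EOM, TA, CN3 and CN6, and Klf9 -0.75, -0.31, -0.15 and -0.22. With 24 libraries 3 of the list were lower and 0 higher. Of 24 immediate early genes, 3 were higher and 2 lower: Ier2 and Junb had main log2 changes of 1.25 and 1.21, with log2 changes in EOM and TA of 2.20 and 2.19 for Ier2 and of 1.97 and 2.67 for Junb, and in CN3 and CN6 of 0.07 and 0.31 and of 0.02 and -0.04. The third was Btg2 (0.76), and the lower genes were Klf6 (-0.52) and Ier3 (-0.27). These 5 are 20.8% of the list, near the 17.2% of all genes, and with 24 libraries 3 were higher and 0 lower. The summed level of that list ran from 460 to 2415 CPM in albino EOM and from 750 to 812 CPM in pigmented EOM, so it varied widely among the albino libraries.

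All 14 tested genes of the MHC list (antigen presentation on class I and II molecules) were higher in albino mice for the main effect, with a median log2 change of 0.70 against 0.03 over all genes tested. The 14 were called higher in EOM and in TA, against 22.0% and 19.1% of all genes. In CN3 and CN6 0 were called, where the shares of all genes called were 1.12% and 0.250%. A muscle against brainstem difference was called for 13, against 37.6% of all genes. H2-K1, a classical class I heavy chain, was at 132, 132, 134 and 154 CPM in pigmented EOM and 194, 202, 246 and 294 CPM in albino EOM. In TA it was at 127 ± 17.8 against 199 ± 35.8 CPM, and in CN3 at 24.3 ± 2.91 against 27.8 ± 1.44 CPM (SD, n = 4). B2m, the light chain of class I, had log2 changes of 0.38, 0.62, 0.23 and 0.11 in EOM, TA, CN3 and CN6, and H2-Q4 had 1.00, 1.02, 0.58 and 0.42. With 24 libraries 13 of 14 were called and with the 8 libraries against their label 12, all higher.

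Promoters of the class I genes H2-K1, H2-D1 and B2m are shown for the letters they share with immune promoters, in capitals: an NF-kB site in H2-K1 (chr17:34000284-34000583, minus strand, one of 2 starts listed) and H2-D1 (chr17:35262844-35263143, plus strand), and the core of the interferon-stimulated response element (GAAA, any 2 bases, GAAA) in B2m (chr2:122147437-122147736, plus strand).
H2-K1: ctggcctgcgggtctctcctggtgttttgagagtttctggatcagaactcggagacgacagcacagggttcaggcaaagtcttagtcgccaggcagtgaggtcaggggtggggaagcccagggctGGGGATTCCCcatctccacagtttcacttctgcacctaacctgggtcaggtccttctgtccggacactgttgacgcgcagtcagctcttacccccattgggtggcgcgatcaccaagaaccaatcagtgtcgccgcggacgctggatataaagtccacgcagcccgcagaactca
H2-D1: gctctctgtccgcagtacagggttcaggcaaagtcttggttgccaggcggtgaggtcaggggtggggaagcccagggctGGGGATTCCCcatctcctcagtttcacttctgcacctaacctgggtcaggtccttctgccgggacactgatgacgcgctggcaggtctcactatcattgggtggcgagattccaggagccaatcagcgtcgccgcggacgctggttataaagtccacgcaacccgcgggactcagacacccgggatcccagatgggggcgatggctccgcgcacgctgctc
B2m: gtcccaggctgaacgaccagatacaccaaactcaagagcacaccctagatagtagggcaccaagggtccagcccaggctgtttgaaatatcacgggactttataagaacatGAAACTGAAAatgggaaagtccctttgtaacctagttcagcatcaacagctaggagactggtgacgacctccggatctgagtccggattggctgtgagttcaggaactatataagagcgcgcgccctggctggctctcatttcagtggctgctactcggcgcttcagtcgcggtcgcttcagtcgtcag
Searched on both strands at the first listed start of each gene, that NF-kB site stood in 4 of 13 MHC promoters (H2-K1, H2-D1, H2-Q6 and H2-Q7) against 0.104% of all promoters. The interferon element stood in 10 of 13 promoters of the interferon list and in 2 of 13 of the MHC list, against 3.49% of all. No form of the NF-kB site other than the exact letters in capitals above was searched, so its count is a description and not a test of enrichment. The class I genes are similar copies, so their shared letters are not independent, and a match of letters is not evidence of binding.

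Interferon response genes followed the MHC list, with 9 of 20 higher and 0 lower, against 8.28% and 8.89% of all genes. The number higher was 5 with 24 libraries, 5 with the 8 libraries against their label and 4 with a correlation shared within genotype and replicate number. Bst2, which tethers budding virus, had log2 changes of 1.13 and 1.01 in EOM and TA but -0.10 and 0.59 in CN3 and CN6, and Irf7 had 0.81, 0.61, 0.32 and 0.22. Markers of macrophages and microglia moved with both lists in limb muscle: 18 of 20 were called higher in TA, where their summed level was 319 to 434 CPM in albino and 98.5 to 116 CPM in pigmented libraries. Of all genes 19.1% were called higher in TA. In EOM 4 of these markers were higher and 3 lower, near the 22.0% and 18.1% of all genes, with sums of 887 to 1016 and 787 to 963 CPM. In brainstem 0 were called. Lyz2, the lysozyme of macrophages, had log2 changes of 0.43, 2.24, 0.36 and 0.04. The part of these cells in the MHC and interferon differences was not tested. Endothelial markers had 4 of 20 higher and 3 lower, among them Cldn5 (main log2 change 1.05) and Flt1 (-0.26).

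Cytosolic ribosomal protein genes had 24 of 39 higher and 0 lower, with small changes (median 0.19). Rps16, Rplp0 and Rps9 had main log2 changes of 0.25, 0.25 and 0.21. GC content moved with this result: the median main log2 change of all genes was -0.08 in the quartile of lowest GC and 0.11 in that of highest GC, and 0.12 in the quartile of shortest exon length. The trend lay in muscle, where these medians were -0.19, 0.32 and 0.31. In brainstem they were 0.03, -0.06 and -0.03. With GC and length offsets 9 ribosomal protein genes were called, with the shared correlation 7, with 24 libraries 21 of 40 and with the 8 libraries against their label 0. Respiratory chain genes had 3 of 40 called for the main effect, all higher, but 36 were higher in EOM and 21 in TA (0 lower), against 22.0% and 19.1% of all genes. Their muscle against brainstem difference was called for 35, and the mean of the 4 differences in the 8-group fit for 24. Genes of NADPH supply and antioxidant defence, where Nnt belongs, had 4 of 24 higher and 5 lower. Sod1, the cytosolic superoxide dismutase, rose by 0.56 and 0.39 in EOM and TA (-0.04 in both brainstem tissues), and Nfe2l2, the activator of antioxidant genes, fell by 0.68 and 0.39 in EOM and TA. Heat shock genes had 1 of 20 higher and 2 lower.

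**Figure D5:**
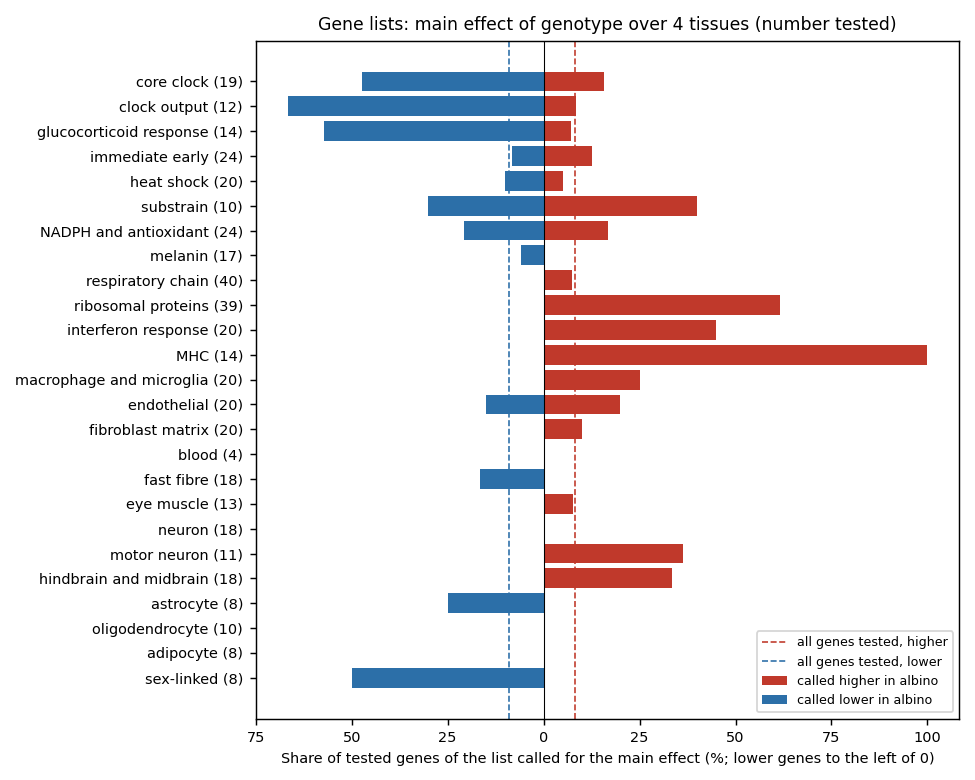
Share of the tested genes of each list (number tested in parentheses) called for the main effect of genotype, higher in albino mice to the right in red and lower to the left in blue (x axis, percent). Dashed lines mark 8.28% and 8.89%, the shares of all genes tested. The MHC list reaches 100% higher, and the clock output list has 8 of 12 lower.

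Lists of other cell types show what else differed between the pieces of tissue. Of 18 fast fibre genes 3 were lower for the main effect. The number lower was 1 with 24 libraries, 0 with the 8 libraries against their label and 12 as the mean of the 4 differences. With the shared correlation 1 was lower and 2 were higher. The median log2 change of the list was 0.17 in muscle and -0.80 in brainstem. In CN3 and CN6 7 and 5 of the 18 genes were called lower, against 0.501% and 0.0932% of all genes. Their summed level there was only 184 to 336 CPM, against 384241 CPM or more in TA, and it overlapped between genotypes. Their mean log2 CPM ran from 0.08 to 0.39 in albino and from 1.01 to 1.51 in pigmented CN3 libraries. In CN6 it ran from 0.03 to 0.24 and from 0.63 to 1.81. Ckm, on this list, was at 1.31 CPM or less in every brainstem library. The source of these low levels was not tested. Motor neuron markers had 4 of 11 higher (6 in CN3), but 2 with 24 libraries, 1 with the replicate block, with the shared correlation or as the mean of the 4 differences, and 0 with CN3 and CN6 as 1 block. Hindbrain and midbrain markers had 6 of 18 higher and 0 lower, led by Tph2, En1 and En2. These counts were 6 and 0 with 24 libraries too, but 6 and 2 with the shared correlation and 6 and 4 with limma voom. With CN3 and CN6 as 1 block they were 4 and 0. The summed level of this list in CN3 overlapped between genotypes, at 103 to 443 CPM in albino and 55.4 to 147 CPM in pigmented libraries. In muscle 0 motor neuron genes were called, and of the midbrain list 1 was higher in EOM and 1 lower in TA. Astrocytes had 2 of 8 lower, and 0 with GC and length offsets or the shared correlation. Fibroblast matrix had 2 of 20 higher and eye muscle genes 1 of 13 for the main effect, shares near the 8.28% of all genes. In TA, however, 19 of the 20 fibroblast matrix genes were called higher and 0 lower, against 19.1% and 10.7% of all genes. Their summed level in TA was 1975 to 3510 CPM in albino and 1106 to 1567 CPM in pigmented libraries. In EOM 1 of them was higher and 6 were lower. Pigment genes had 1 of 17 called, a lower one. Of 8 sex-linked genes 4 were lower for the main effect, and Xist was at 0.258 CPM or less in every library. The number lower was 4 with the replicate block too, but 0 with 24 libraries, with the 8 libraries against their label or with the shared correlation. With GC and length offsets 1 was lower and 1 higher. By tissue, 7 were lower in EOM and 2 in TA, while 1 was higher in CN3 and 0 were called in CN6. Gabra6, a granule cell transcript of the cerebellum, had values that rested on single libraries: it was at 0.0448, 0.0496, 0.346 and 27.6 CPM in the 4 albino CN3 libraries. These values show the spread among albino libraries and are not a comparison of genotypes.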

How the data were processed

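Gene counts of the 32 libraries came from the authors' deposited table of raw read counts, 24421 rows. Per the submitters' processing notes, Trimmomatic 0.33, FastQC, HISAT2 2.1.0, featureCounts and edgeR were used with build mm10; annotation, strand and mate settings are not given in the sources used here. Of counts from 1 to 20, 79.5% were even, against 51.0% of counts from 100 to 1000. Counts were tested with edgeR 4.0.16 (R 4.3.3): filterByExpr left 17169 genes, TMM scaling, quasi-likelihood F tests, Benjamini-Hochberg adjustment over all genes, calls at 0.05. One model had tissue and genotype, another 8 groups of 4 libraries; the muscle against brainstem contrast used the second. The tissue of albino libraries followed the markers above, and that of the others the labels. CPM are edgeR's on TMM-scaled totals. Positions are GENCODE M21 or RefSeq (GRCm38); 16502 tested genes matched. Log2 CPM in the check of replicate numbers had a prior count of 2; fold changes are edgeR's fitted ones. RNA was extracted with either of 2 column kits, for fibrous or for lipid-rich tissue, per the labels; which library had which is not given.

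The members and gene lists were chosen with earlier results of these data known. Genes were named by rule: Tyr and Nnt; members with a mean of 1 CPM, filled to 5 per direction from one-sign main calls; the 3 just inside and outside; 3 per list by smallest p; 4 per direction for muscle against brainstem; all substrain and sex-linked genes; model-number names left out. Of the members, 1500012F01Rik falls outside this naming rule, and Pydc3 meets it only as a gene just inside. Neighbours, non-overlapping genes and promoters were named after their values were seen. Alternatives were another scaling, filter, threshold, test (DESeq2 1.42.0, limma 3.58.1), library set, covariate and each library left out. The scripts were tested on simulated data. Same-numbered libraries of the 2 genotypes did not deviate together (2 of 16 pairs with r over 0.1, lowest -0.32).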

Additional observations from a re-analysis of the deposited data

Results flagged for a closer look

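In 80 groups of 4 libraries (10 members, 4 tissues, 2 genotypes), 5 had 1 library far from the other 3; chance gives this in about 1 group in 20. They were Pydc3 in albino EOM (highest library 2.48 CPM), in C57BL/6 CN3 (highest 0.0498 CPM, the only one with counts) and in albino CN6 (lowest 0.0527 CPM), Asb4 in C57BL/6 CN3 (highest 2.42 CPM) and Wdfy1 in C57BL/6 EOM (highest 43.3 CPM). None of these libraries crossed into the range of the other genotype, except that for Pydc3 in CN3 the lowest albino library was at 0.0494 CPM.

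The genotype difference in muscle and the one in brainstem differed, by edgeR's quasi-likelihood test of that difference with Benjamini-Hochberg adjustment, for 55 of the genes named, 5 of them members. Values are muscle minus brainstem, log2, and each is relative to a call rate of 37.6% over all genes. A value can come from either side. Myh4 had a log2 change of -0.12 in muscle, called in neither EOM nor TA, and of -3.56 in brainstem. For the members, chosen by the same 4 tissue differences, these values are a description. They were Nnt (-0.95), Asb4 (-0.54), Wdfy1 (-0.46), Ide (-0.35) and Entpd4 (0.32). Genes with a larger albino minus C57BL/6 value in muscle were Myh4 (3.43), Arntl (2.87), Junb (2.33), Cldn5 (2.04), Ier2 (2.00), Tyrobp (1.59), Egfl7 (1.41), 1700112E06Rik (1.36), Samd10 (1.27), Fam73b (1.23), Fbn1 (1.17), Uqcrq (1.15), Lyz2 (1.14), Cd14 (1.11), Dpt (0.84), Bst2 (0.83), Atp5l (0.81), Cyfip2 (0.67), Kdr (0.62), Sod1 (0.51), H2-K1 (0.50), Rps16 (0.49), Rplp0 (0.47), Cox7c (0.46), B2m (0.34) and Rps9 (0.30). Genes with a smaller value in muscle were Ciart (-2.86), Per2 (-2.72), Klf6 (-1.46), Per3 (-1.42), Fam117b (-1.36), Per1 (-1.36), Dbp (-1.30), Nr1d2 (-1.25), Ddx3y (-1.24), Nucks1 (-0.98), Tsc22d3 (-0.97), Caprin1 (-0.78), Uty (-0.78), Ddx3x (-0.63), Dnajb4 (-0.62), Dnaja1 (-0.61), Nfe2l2 (-0.51), Tef (-0.47), Aqp4 (-0.42), Flt1 (-0.34), Klf9 (-0.34), Kdm6a (-0.34), Eif2s3x (-0.31) and Kdm5d (-0.26). The naming rule picked some of these genes for this very difference, so their number is no result.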

How the results depend on the processing

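The number of genes with a main effect of genotype was 2947 and that of genes called in all 4 tissues 10. With 24 libraries they were 1623 and 5, with the 8 albino libraries against their label 735 and 6, and with every library in its labelled tissue 23 and 1. In that last fit the muscle against brainstem difference was called for 11751 genes instead of 6457, and 8 named genes changed sign: Gabra2 (1.43), Aqp4 (0.0037), Actn3 (3.85), Myh4 (5.45), Zfp612 (0.17), Casq1 (3.97), Gja1 (0.42) and Dnaja1 (0.025). The main effect called 1009 genes at an adjusted p of 0.01, 5321 as the mean of the 4 differences and 1253 with a correlation shared within a genotype and replicate number. With a covariate for Y-linked expression 6 genes were called in all 4 tissues and 2241 for muscle against brainstem. With each library left out in turn the main effect called from 2250 (without albino EOM replicate 3) to 3502 genes (without C57BL/6 CN3 replicate 3), all 4 tissues 7 (without albino CN6 replicate 1) to 10, and the muscle difference 6103 to 6574. The cause of these changes was not tested, and some of these fits also used fewer libraries. Same-numbered libraries of the 2 genotypes did not deviate together; the consensus correlation within genotype and number was 0.157. As a replicate block the numbers gave 3211, 8 and 5259 genes for the 3 results, and 3321 for the third with GC and length offsets too. Placed by markers, the albino muscle libraries all carried the numbers 3 and 4 and the albino brainstem libraries 1 and 2. In albino mice the number and muscle against brainstem therefore cannot be told apart, which limits the replicate block and the shared correlation as checks. With GC and length offsets alone the 3 results were 2025, 10 and 4645 genes, and 1571 of the main effect calls were shared with the first fit. Scaling by DESeq2 size factors or upper quartile, other filters and DESeq2 or limma voom stayed within 1.5 times of each of the 3 counts. Of 86 named genes tested, 12 had a call changed by leaving out 1 library and 74 had none. Counting depth limits Pydc3 most, with 24 and 27 counts over the albino brainstem groups.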
